A study of Arabidopsis thaliana with 12 samples.

Results

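WRKY proteins are plant transcription factors named after a stretch of amino acids in their DNA-binding domain, and 50 genes of the Arabidopsis thaliana family were followed here through a change in boron supply. The members are a list of gene identifiers drawn up with earlier results of these data known, and all 50 had a row in both count tables, out of 27655 genes. RefSeq gives 72 genes a WRKY name, so that 22 WRKY genes were outside the 50, and only 10 of those 22 had enough mRNA reads to be tested, against 46 of the 50. The question was how the mRNA of each gene, and the ribosomes on it, differed between shoots grown with little, enough and much boron.

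WRKY factors bind the W-box, a short DNA element found in the promoters of many defence and senescence genes, and many of them act in the response to pathogens, wounding, ageing and nutrient shortage. The family is usually divided by the number of WRKY domains and the type of zinc finger into groups I, II and III, with group II split into subgroups IIa to IIe. Several members are phosphorylated by mitogen-activated protein (MAP) kinases or bind small VQ-motif proteins, and several regulate their own or each other's genes. Boron is a nutrient that holds pectin chains together in the cell wall, is needed in small amounts and is toxic in excess. WRKY6 is known to be needed for normal root growth of Arabidopsis at low boron, and a WRKY47 gene of Brassica napus has been tied to low-boron tolerance.

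The plants were Col-0 wild type throughout, with no transgene or mutation, and their shoots were taken whole at an age of 14 days. About 300 seedlings were pooled for each replicate, so that a library averages over many plants and over all shoot cell types. Seedlings grew on sterile MGRL nutrient medium with sucrose at 22 °C under 16 h of light and 8 h of dark. The 3 boron supplies were 0.3 µM boric acid (Bminus, here low boron), 30 µM (Ctrl) and 500 µM (Bplus, here high boron). RNA-seq measured mRNA and ribosome profiling measured footprints, the mRNA pieces that ribosomes shield from a nuclease, with 2 libraries for each supply and assay and 12 libraries in all. The p-values therefore rest on the spread between pooled samples, not between single plants. With 2 libraries per group, that spread was estimated over all groups of a fit, not from the compared groups alone. The replicates are numbered 2 and 3 in the tables, and values below are given in that order. In bulk shoot RNA, fewer cells of a type and less RNA per cell cannot be told apart.

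Total counts over coding sequences ran between 7563365 and 9256564 in the RNA libraries and between 6903881 and 24206655 in the footprint libraries. The spread between libraries of a group was 6.92% in mRNA and 14.9% in footprints (edgeR's biological coefficient of variation, over all genes), so a change of a given size was easier to call in mRNA. Shoot markers, genes of photosynthesis such as RBCS1A and CAB1, summed to 23100 and 23000 CPM (reads scaled to equal library size with edgeR's TMM factors) in mRNA at 0.3 µM, 30100 and 32100 CPM at 30 µM, and 25800 and 27100 CPM at 500 µM boric acid. Of these 6 markers, 5 passed as lower in mRNA at low boron (edgeR adjusted p under 0.05), beside 13.8% of all genes. In footprints 1 of the 6 passed as lower at that supply, beside 1225 of 17697 genes. High-boron mRNA differed from Ctrl for 2 markers, 1 lower and 1 higher, beside 838 and 829 of 18403 genes. Of 8 root markers, 7 had at most 8 reads in any RNA library, and PYK10, a beta-glucosidase gene of roots and hypocotyls, carried nearly all of their sum. CPM is not divided by gene length here, so a level is compared only between supplies within a gene and an assay.

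WRKY mRNA was most abundant at low boron and least abundant at high boron. The 50 genes together made up 0.182% and 0.187% of all RNA counts at 0.3 µM, 0.0973% and 0.101% at 30 µM, and 0.075% and 0.0757% at 500 µM boric acid. Their footprints took 0.175% and 0.213%, 0.113% and 0.118%, and 0.0894% and 0.092% of the footprint counts at the same supplies. In both assays the shares of the 3 supplies did not overlap.

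At low boron against Ctrl, mRNA of 25 of the 46 members that passed the low-count filter differed, 24 of them higher and 1 lower (edgeR quasi-likelihood test, Benjamini-Hochberg adjusted p under 0.05 over all 18403 genes tested). These are 54.3% of the members tested, beside 33.3% of all genes tested, and 52.2% of the members were higher, beside 19.5% of all genes. The median change of the members was 0.53 on the log2 scale, beside 0.02 for all genes. Of the members, 15 rose at least 2-fold, a size reached by 5.41% of all genes, and the largest rises were those of WRKY46, WRKY75, WRKY40, WRKY53 and WRKY50. Both low-boron libraries stood above both Ctrl libraries for 33 members, beside 36.4% of all genes. The single member that fell was WRKY11, a repressor of basal defence, beside 13.8% of all genes.

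At high boron against Ctrl, mRNA of 14 members differed, 2 higher and 12 lower. This is 30.4% of the 46 members tested, beside 9.06% of all genes, and 26.1% of the members were lower, beside 4.55% of all genes. The median change of the members was -0.28 on the log2 scale, beside -0.01 for all genes, and 6 members fell at least 2-fold, as did 1.29% of all genes. WRKY54, WRKY51, WRKY61, WRKY38, WRKY70 and WRKY53 fell most, and WRKY2 and WRKY39 rose. These 2 rises are 4.35% of the 46 members, beside 829 of 18403 genes, so that the share was no larger than among all genes. Both high-boron libraries stood below both Ctrl libraries for 20 members, beside 25.3% of all genes. The count rested partly on 1 library: without high-boron RNA library 2 it was 6, of which 5 were lower.

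In footprints, 17 of 47 members tested rose at low boron against Ctrl and none fell, which is 36.2% of the members, beside 15.0% of all 17697 genes called and 8.05% higher. The median change was 0.48 on the log2 scale, beside 0 for all genes, and 11 members rose at least 2-fold, as did 4.09% of all genes. DESeq2 called 17 members and limma voom 18, again all higher, and without low-boron footprint library 3 the edgeR count was 11. At high boron, footprints of 4 members fell (WRKY51, WRKY54, WRKY46 and WRKY70) and none rose, or 8.51% of the members, beside 1.98% of all genes called and 1.51% lower. Both high-boron footprint libraries stood below both Ctrl libraries for 24 members, beside 18.0% of all genes. In all, 17 members had an unadjusted p under 0.05, beside 2008 of 17697 genes, and DESeq2 called 4 members and limma voom 3, again all lower. Leaving out 1 footprint library at a time left between 1 and 4 of these calls, with 1 left without Ctrl library 2, 2 without high-boron library 2 and 1 without high-boron library 3.

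**Figure D1:**
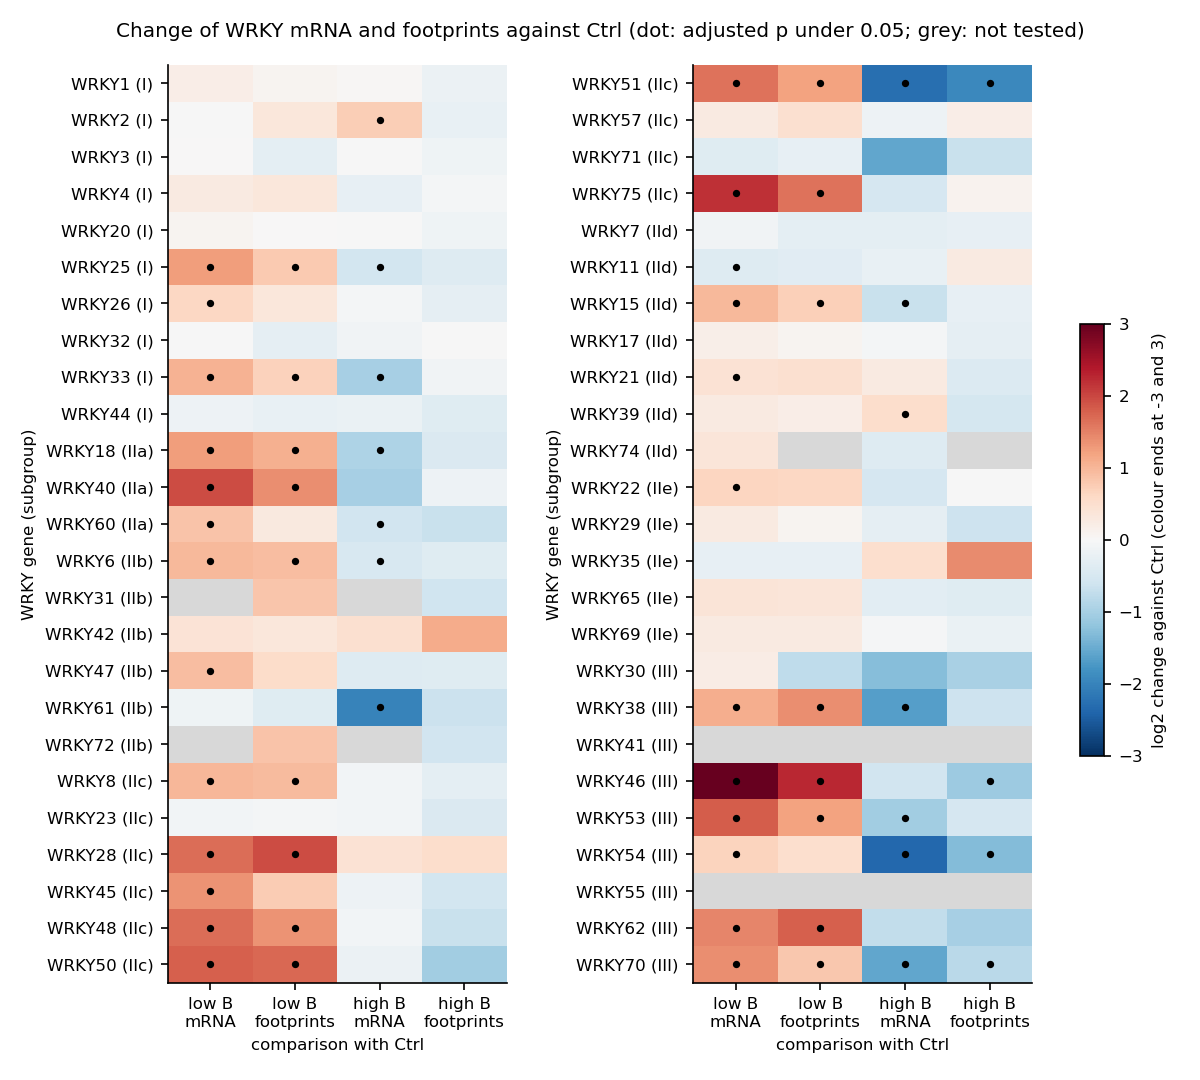
Log2 change in mRNA and in footprints (colour, columns) of each of the 50 WRKY genes (rows, with subgroup), for low and for high boron against Ctrl. Dots mark an edgeR adjusted p under 0.05 and grey marks genes not tested. The low-boron columns are mostly red, with 24 dots for higher mRNA, and the high-boron columns mostly blue, with 12 dots for lower mRNA.

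The subgroups were unequal in how many of their members differed. At low boron, mRNA of 6 of 7 tested group III genes, 3 of 3 subgroup IIa genes and 7 of 10 subgroup IIc genes rose, beside 19.5% of all genes, with median changes of 1.39, 1.26 and 1.49 on the log2 scale. In group I, 3 of 10 rose with a median of 0.15, in subgroup IIb 2 of 4 rose with a median of 0.66, and in subgroup IIe 1 of 5 rose with a median of 0.27. Subgroup IId held 2 genes that rose and 1 that fell among 7. At high boron, 4 of 7 group III genes fell with a median of -1.28, 2 of 3 subgroup IIa genes with a median of -0.92 and 2 of 4 subgroup IIb genes with a median of -0.44, beside 4.55% of all genes. In group I 2 of 10 fell and 1 rose, in subgroup IId 1 of 7 fell and 1 rose, and in subgroup IIc 1 of 10 fell, while the 5 subgroup IIe genes had a median of -0.28 and no call. These counts describe the genes, and the differences between subgroups were not tested.

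Group III holds regulators of salicylic acid defence and of leaf senescence. WRKY46 (AT2G46400), which acts with WRKY70 and WRKY53 in basal defence, had the largest mRNA rise of all members. Its mRNA level was 91.6 and 102 CPM at 0.3 µM, 9.41 and 7.96 CPM at 30 µM, and 4.62 and 6.82 CPM at 500 µM boric acid. The groups did not overlap, and the low-boron level was 11.1-fold the Ctrl level (log2 change 3.48 ± 0.14 SE, edgeR adjusted p = 5.28e-10). Its footprints stood at 106 and 121 CPM at 0.3 µM, 27.2 and 19.8 CPM at 30 µM, and 11.8 and 10.6 CPM at 500 µM. They rose at low boron by 2.26 ± 0.19 and fell at high boron by 1.08 ± 0.21 on the log2 scale (edgeR adjusted p = 3.03e-06 and 0.012). The fall in mRNA at high boron, with a log2 change of -0.58 ± 0.20, did not pass (edgeR adjusted p = 0.0911), except without the low-count filter (0.0327) and without high-boron library 3 (0.0411). The footprint call at high boron was lost without Ctrl library 2 (adjusted p = 0.179), high-boron library 2 (0.0619) or high-boron library 3 (0.0552).

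WRKY53 (AT4G23810) promotes leaf senescence. Its mRNA stood at 83.2 and 97.5 CPM at 0.3 µM, 21.9 and 29.6 CPM at 30 µM, and 11.9 and 13 CPM at 500 µM boric acid, so that all 3 supplies were apart. It rose 3.51-fold at low boron (log2 change 1.81 ± 0.13 SE, edgeR adjusted p = 9.36e-08) and fell to 0.486 of Ctrl at high boron (log2 change -1.04 ± 0.16, adjusted p = 0.000756). Its footprints were at 145 and 182 CPM at 0.3 µM, 54 and 88.2 CPM at 30 µM, and 50 and 49.3 CPM at 500 µM. They rose 2.31-fold at low boron (edgeR adjusted p = 0.00143), and the log2 change of -0.51 ± 0.22 at high boron did not pass (adjusted p = 0.37). In footprints the low-boron libraries stood apart, while the Ctrl libraries differed from each other by more than Ctrl library 2 differed from high boron.

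WRKY70 (AT3G56400) and WRKY54 (AT2G40750) are close relatives that hold back senescence, and WRKY70 sits between salicylic acid and jasmonate signalling. WRKY70 mRNA stood at 307 CPM in both low-boron libraries, 124 and 111 CPM in Ctrl and 30.4 and 48.7 CPM at high boron. It rose 2.61-fold at low boron and fell to 0.34 of Ctrl at high boron (edgeR adjusted p = 1.82e-06 and 1.29e-05). WRKY70 footprints were at 329 and 404 CPM at 0.3 µM, 184 and 234 CPM at 30 µM, and 121 and 117 CPM at 500 µM. These groups did not overlap, and both footprint changes passed with log2 changes of 0.81 ± 0.19 and -0.81 ± 0.19 (edgeR adjusted p = 0.00835 and 0.0367). The rise was lost without low-boron library 3 (adjusted p = 0.138) or Ctrl library 2 (0.0974), and the fall without any 1 of the 4 Ctrl and high-boron footprint libraries (0.0512 to 0.179).

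WRKY54 differed from WRKY70 in where its change lay. Its mRNA stood at 53.7 and 56 CPM at 0.3 µM, 42 and 26.4 CPM at 30 µM, and 5.39 and 7.9 CPM at 500 µM, so that most of its range lay between Ctrl and high boron. At high boron it fell to 0.197 of Ctrl (log2 change -2.35 ± 0.22 SE, edgeR adjusted p = 1.26e-05), the largest mRNA fall of the members in that comparison. Its rise at low boron was 1.6-fold (adjusted p = 0.00504). The Ctrl libraries decided that size: the log2 change was 0.38 without Ctrl library 3 and 1.05 without Ctrl library 2, and the call was lost without low-boron library 3 (adjusted p = 0.053). WRKY54 footprints were at 53.9 and 57.2 CPM at 0.3 µM, 37.9 and 41.1 CPM at 30 µM, and 15.1 and 16.9 CPM at 500 µM, with a log2 change of -1.31 ± 0.18 at high boron that passed (edgeR adjusted p = 0.00116). The footprint change at low boron, 0.49 ± 0.17, did not pass (adjusted p = 0.0615).

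WRKY38 (AT5G22570) and WRKY62 (AT5G01900) are repressors of basal defence that bind a histone deacetylase. WRKY38 mRNA was at 14.7 and 15.1 CPM at 0.3 µM, 7.97 and 6 CPM at 30 µM, and 2.05 and 2.38 CPM at 500 µM boric acid, and it rose 2.13-fold and fell to 0.32 of Ctrl (edgeR adjusted p = 0.00044 and 0.00103). Its footprints were at 20.9 and 34.5 CPM at 0.3 µM, 11.9 and 8.66 CPM at 30 µM, and 6.88 and 6.72 CPM at 500 µM. They rose 2.62-fold at low boron (adjusted p = 0.0016), and the high-boron log2 change of -0.62 ± 0.28 did not pass (adjusted p = 0.408). WRKY62 was a low-count gene, with mRNA at 5.32 and 4.05 CPM, 2.32 and 1.04 CPM, and 1.28 and 0.758 CPM at the rising supplies, where Ctrl and high boron overlapped. Its mRNA rose 2.76-fold at low boron (edgeR adjusted p = 0.00863), and this call was lost with DESeq2 (0.069), without low-boron library 2 (0.107) and without Ctrl library 3 (0.0691). WRKY62 footprints were at 8.43 and 12.8 CPM at 0.3 µM, 3.19 and 2.79 CPM at 30 µM, and 1.26 and 1.92 CPM at 500 µM, and rose 3.45-fold at low boron (adjusted p = 0.00121).

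The remaining group III genes were WRKY30, WRKY41 and WRKY55. WRKY30, a gene induced by oxidative stress, was the tested group III gene with no call against Ctrl in either assay. Its mRNA at high boron (1.28 and 0.433 CPM) lay below that in Ctrl (1.44 and 2.65 CPM) without passing (log2 change -1.28 ± 0.54, edgeR adjusted p = 0.17), and its footprints at low boron (3.71 and 2.88 CPM) lay below those in Ctrl (5.15 and 6.45 CPM) without passing (log2 change -0.77 ± 0.31, edgeR adjusted p = 0.109). WRKY41, a regulator of seed dormancy, was too low to test. It had 7 and 13 mRNA reads at 0.3 µM, 1 and 0 at 30 µM, and 1 and 2 at 500 µM, and it had 14 and 13, 3 and 0, and 1 and 1 footprint reads at the same supplies. WRKY55, a gene of senescence, had between 1 and 7 mRNA reads and between 0 and 17 footprint reads per library and was not tested either. WRKY55 lies next to WRKY54 in the genome, and whether counting used the strand is not given in the sources used here.

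**Figure D2:**
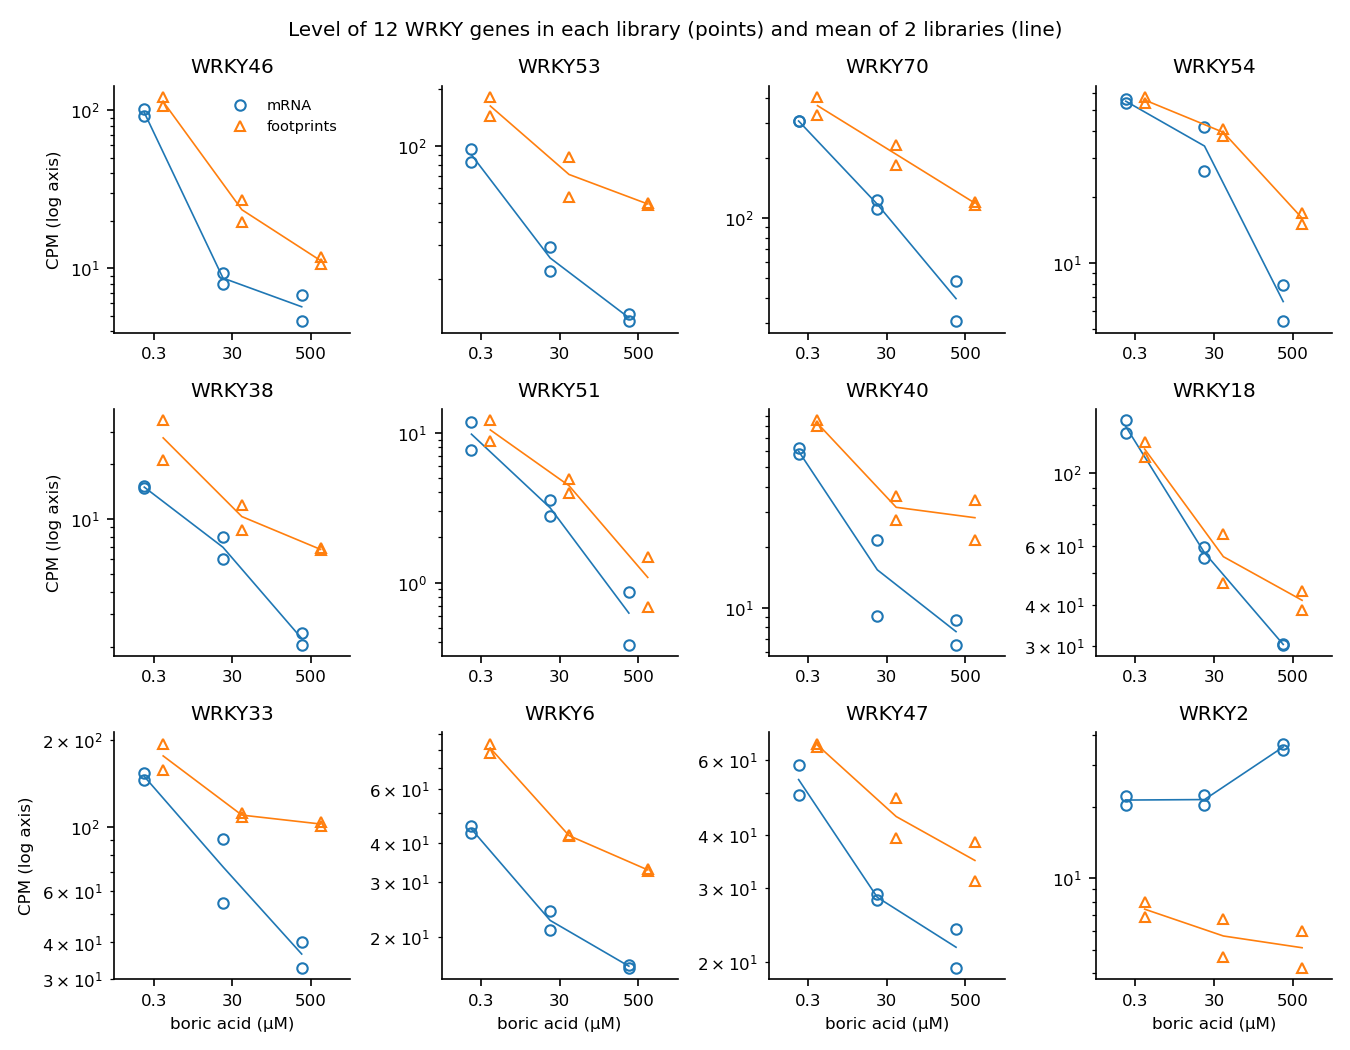
mRNA (blue circles) and footprint (orange triangles) level of 12 WRKY genes in each library, in CPM on a log axis whose range differs between panels, at 0.3, 30 and 500 µM boric acid, with lines through the means of 2 libraries. In 11 panels the mean mRNA level falls as boron rises, and WRKY2 mRNA instead reaches 36.7 and 34.4 CPM at 500 µM. The 12 genes are a selection, so the count of panels does not describe the family. Of the 46 members tested, 7 had a positive and 39 a negative log2 change in mRNA at high boron against Ctrl.

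Subgroup IIa consists of WRKY18, WRKY40 and WRKY60, partly redundant repressors of defence that bind each other and also act in abscisic acid signalling. All 3 rose in mRNA at low boron. WRKY40 (AT1G80840) mRNA was at 58 and 62.2 CPM at 0.3 µM, 9.07 and 21.8 CPM at 30 µM, and 6.55 and 8.66 CPM at 500 µM boric acid. The low-boron libraries stood far above the others, while the Ctrl libraries differed from each other more than Ctrl library 2 differed from high boron. The rise was 3.91-fold (log2 change 1.97 ± 0.23 SE, edgeR adjusted p = 1.38e-05), and the log2 change was 1.46 without Ctrl library 2 and 2.73 without Ctrl library 3. At high boron the log2 change of -1.0 ± 0.30 did not pass (adjusted p = 0.0541). It passed in 3 alternatives, namely without Ctrl library 2 (2.85e-07), without the low-count filter (1.68e-05) and with the replicate number as a block (0.0183). WRKY40 footprints were at 79.8 and 85.5 CPM at 0.3 µM, 27.4 and 35.8 CPM at 30 µM, and 34.3 and 21.8 CPM at 500 µM, where Ctrl and high boron overlapped, and rose 2.63-fold at low boron (adjusted p = 0.000448).

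WRKY18 (AT4G31800) had closer Ctrl replicates than WRKY40 in mRNA, though not in footprints. Its mRNA was at 132 and 144 CPM at 0.3 µM, 55.2 and 59.6 CPM at 30 µM, and 30.3 and 30.4 CPM at 500 µM, and it rose 2.4-fold at low boron and fell to 0.529 of Ctrl at high boron (edgeR adjusted p = 6.63e-08 and 3.22e-05). Its footprints were at 112 and 124 CPM at 0.3 µM, 65.2 and 46.5 CPM at 30 µM, and 44 and 38.5 CPM at 500 µM. They rose 2.1-fold at low boron (adjusted p = 0.00135), while the high-boron log2 change of -0.44 ± 0.19 did not pass (adjusted p = 0.387). WRKY60 (AT2G25000) mRNA rose 1.8-fold at low boron and fell to 0.673 of Ctrl at high boron (edgeR adjusted p = 7.48e-05 and 0.0158), the fall being lost with DESeq2 (0.0691), without Ctrl library 2 (0.0704) and without high-boron library 2 (0.156). WRKY60 footprints, at 23.3 and 28.8 CPM in low boron and 21.5 and 20.7 CPM in Ctrl, did not pass (log2 change 0.29 ± 0.20, adjusted p = 0.372).

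Subgroup IIc genes mostly rose at low boron and mostly did not pass at high boron. WRKY75 (AT5G13080), known from phosphate starvation and senescence, had mRNA at 4.75 and 6.2 CPM at 0.3 µM, 1.44 and 0.922 CPM at 30 µM, and 1.16 and 0.541 CPM at 500 µM boric acid. It rose 4.57-fold at low boron (log2 change 2.19 ± 0.38 SE, edgeR adjusted p = 0.000426), while Ctrl and high boron overlapped. WRKY75 footprints were at 6.02 and 8.44 CPM at 0.3 µM, 2.78 and 1.61 CPM at 30 µM, and 2.37 and 2.6 CPM at 500 µM. They rose 3.09-fold (adjusted p = 0.00436), which no longer passed without low-boron footprint library 3 (0.0521). WRKY45 (AT3G01970), an activator of the phosphate transporter gene PHT1;1, had mRNA at 22.9 and 24.2 CPM at 0.3 µM, 9.85 and 8.53 CPM at 30 µM, and 8.22 and 8.34 CPM at 500 µM. Its mRNA rose 2.55-fold at low boron (adjusted p = 7.42e-06). The footprint log2 change of 0.76 ± 0.31 did not pass (adjusted p = 0.117), with libraries at 7.71 and 5.18 CPM in low boron and 4.5 and 3.08 CPM in Ctrl.

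WRKY50 (AT5G26170) and WRKY51 (AT5G64810) both repress jasmonate signalling when salicylic acid is raised. WRKY50 mRNA was at 12.2 and 14.3 CPM at 0.3 µM, 4.2 and 3.46 CPM at 30 µM, and 2.82 and 3.9 CPM at 500 µM boric acid, a 3.44-fold rise at low boron with overlap between Ctrl and high boron (edgeR adjusted p = 2.5e-05). Its footprints were at 10.3 and 11.7 CPM at 0.3 µM, 3.52 and 3.08 CPM at 30 µM, and 1.41 and 1.92 CPM at 500 µM. They rose 3.28-fold at low boron (adjusted p = 0.000672), and the high-boron libraries lay below Ctrl without passing (log2 change -1.05 ± 0.35, adjusted p = 0.188). WRKY51 changed at both ends. Its mRNA was at 7.69 and 11.9 CPM at 0.3 µM, 3.54 and 2.77 CPM at 30 µM, and 0.385 and 0.866 CPM at 500 µM, the last from 3 and 8 reads. It rose 3.09-fold and fell to 0.208 of Ctrl (edgeR adjusted p = 0.000585 and 0.00767), the fall being lost without high-boron library 2 (0.0943).

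WRKY51 footprints were at 8.81 and 12.1 CPM at 0.3 µM, 4.91 and 3.96 CPM at 30 µM, and 1.48 and 0.685 CPM at 500 µM boric acid. The 3 supplies did not overlap. The rise of 1.2 ± 0.30 and the fall of -1.93 ± 0.39 on the log2 scale both passed (edgeR adjusted p = 0.0126 and 0.0165). The rise was lost without low-boron library 3 (0.147), Ctrl library 2 (0.0589) or Ctrl library 3 (0.0641). The fall was lost with limma voom (0.0538), without Ctrl library 2 (0.187) and without high-boron library 3 (0.0753).

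WRKY28 (AT4G18170), which activates the salicylic acid synthesis gene ICS1, had mRNA at 11.2 and 10.7 CPM at 0.3 µM, 2.77 and 4.15 CPM at 30 µM, and 3.72 and 5.52 CPM at 500 µM boric acid. It rose 3.17-fold at low boron (log2 change 1.67 ± 0.25 SE, edgeR adjusted p = 0.000136). Its footprints, at 16.1 and 24.1 CPM at 0.3 µM, 5.48 and 4.69 CPM at 30 µM, and 7.7 and 7.13 CPM at 500 µM, rose 3.86-fold at low boron (adjusted p = 0.000116). WRKY28 was one of 3 members whose high-boron footprint libraries both lay above both Ctrl libraries, beside 18.3% of all genes, and its log2 change of 0.53 ± 0.27 did not pass (adjusted p = 0.501). WRKY48 (AT5G49520), a repressor of basal resistance, had mRNA at 17.2 and 13 CPM at 0.3 µM, 4.98 and 4.38 CPM at 30 µM, and 3.98 and 4.87 CPM at 500 µM, and rose 3.22-fold at low boron (adjusted p = 2.66e-05). WRKY48 footprints were at 12.9 and 13.4 CPM at 0.3 µM, 6.13 and 3.96 CPM at 30 µM, and 3.11 and 3.43 CPM at 500 µM, a 2.53-fold rise at low boron (adjusted p = 0.00224). For both genes low boron stood apart from the other supplies in both assays.

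WRKY8 (AT5G46350), which acts in the response to wounding and viral infection, rose 2-fold in mRNA and 1.92-fold in footprints at low boron (edgeR adjusted p = 0.0155 and 0.0189). The mRNA call was lost with DESeq2 (0.107), without low-boron library 2 (0.177) and without Ctrl library 3 (0.0591). The footprint call was lost without low-boron library 3 (0.14), Ctrl library 2 (0.121) or Ctrl library 3 (0.0524). The other subgroup IIc genes, WRKY23, WRKY57 and WRKY71, did not pass in either assay at either supply. WRKY71, a gene of shoot branching and flowering, had the largest uncalled mRNA difference at high boron, at 0.385 and 0.974 CPM against 2.66 and 1.5 CPM in Ctrl (log2 change -1.55 ± 0.53, adjusted p = 0.086).

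Subgroup IIb holds WRKY6, known from boron nutrition, and WRKY47, which shares its name with the Brassica napus gene tied to low-boron tolerance. WRKY6 (AT1G62300), which also acts in senescence and represses the phosphate exporter gene PHO1, had mRNA at 45.6 and 43.3 CPM at 0.3 µM, 24.2 and 21 CPM at 30 µM, and 16.3 and 15.9 CPM at 500 µM boric acid. No 2 supplies overlapped. It rose 1.96-fold at low boron (log2 change 0.97 ± 0.11 SE, edgeR adjusted p = 1.18e-05) and fell to 0.712 of Ctrl at high boron (log2 change -0.49 ± 0.13, adjusted p = 0.0252). The rise kept its call in all 13 alternatives, while the fall lost it in 7: with DESeq2 (0.133), in a fit of 2 groups alone (0.0694), and without Ctrl library 2 (0.128), high-boron library 2 (0.115), high-boron library 3 (0.112), low-boron library 2 (0.0557) or low-boron library 3 (0.0545). WRKY6 footprints were at 78.2 and 83.7 CPM at 0.3 µM, 42.5 and 42.2 CPM at 30 µM, and 32.7 and 33 CPM at 500 µM. They rose 1.91-fold at low boron (adjusted p = 0.00137), and the high-boron log2 change of -0.37 ± 0.17 did not pass (adjusted p = 0.424) although the libraries did not overlap.

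WRKY47 (AT4G01720) mRNA was at 49.6 and 58.2 CPM at 0.3 µM, 28.9 and 28 CPM at 30 µM, and 24 and 19.4 CPM at 500 µM boric acid. It rose 1.89-fold at low boron (edgeR adjusted p = 3.04e-05), and the high-boron log2 change of -0.40 ± 0.13 did not pass (adjusted p = 0.0763), except without the low-count filter (0.0258). WRKY47 footprints were at 65.5 and 64.4 CPM at 0.3 µM, 48.9 and 39.3 CPM at 30 µM, and 31.1 and 38.4 CPM at 500 µM. Their rise at low boron sat at the threshold, with a log2 change of 0.55 ± 0.18 (edgeR adjusted p = 0.0503), and it passed in 7 alternatives with adjusted p-values of 0.029 to 0.0452. In mRNA WRKY6 and WRKY47 rose by less than WRKY46, WRKY40 and WRKY75, the largest risers of group III and subgroups IIa and IIc.

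WRKY61 (AT1G18860), a relative of the defence gene WRKY72, fell to 0.251 of Ctrl in mRNA at high boron (log2 change -2.0 ± 0.55 SE, edgeR adjusted p = 0.0336). Its mRNA was at 2.38 and 1.55 CPM at 0.3 µM, 2.43 and 1.84 CPM at 30 µM, and 0.257 and 0.758 CPM at 500 µM, from 2 and 7 reads at high boron. The call was lost when any 1 RNA library other than Ctrl library 3 was left out, with adjusted p-values of 0.0512 to 0.257. Its footprints overlapped between high boron (1.18 and 0.822 CPM) and Ctrl (1.96 and 1.17 CPM) and did not pass (adjusted p = 0.751). WRKY42, a phosphate regulator, did not pass in any comparison with Ctrl, and WRKY31 and WRKY72 had too few mRNA reads to test, from 1 to 13 and from 2 to 14.

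Group I members carry a pair of WRKY domains. WRKY33 (AT2G38470), which is phosphorylated by MPK3 and MPK6 and switches on camalexin synthesis, had mRNA at 154 and 145 CPM at 0.3 µM, 54.6 and 91.3 CPM at 30 µM, and 32.7 and 40.3 CPM at 500 µM boric acid. It rose 2.05-fold at low boron and fell to 0.503 of Ctrl at high boron (edgeR adjusted p = 0.000167 and 0.00261). The spread between the Ctrl libraries set both sizes: the low-boron log2 change of 1.04 became 0.71 without Ctrl library 2 and 1.45 without Ctrl library 3, and the high-boron change of -0.99 became -1.32 and -0.57. The high-boron call was lost without high-boron library 2 (0.0529). WRKY33 footprints, at 158 and 194 CPM at 0.3 µM, 108 and 112 CPM at 30 µM, and 104 and 101 CPM at 500 µM, rose 1.6-fold at low boron (edgeR adjusted p = 0.0144), which no longer passed without low-boron library 3 (0.231) or Ctrl library 2 (0.0868). At high boron they lay close to Ctrl (log2 change -0.10 ± 0.17, adjusted p = 0.912).

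WRKY25 (AT2G30250), a close relative of WRKY33 that acts in heat tolerance, had mRNA at 103 and 104 CPM at 0.3 µM, 46.5 and 39.4 CPM at 30 µM, and 26.6 and 31.5 CPM at 500 µM. It rose 2.4-fold at low boron and fell to 0.678 of Ctrl at high boron (edgeR adjusted p = 3.42e-07 and 0.00523), the fall being lost without high-boron library 2 (0.0835). Its footprints rose 1.73-fold at low boron (adjusted p = 0.00476) and did not pass at high boron (log2 change -0.39 ± 0.17, adjusted p = 0.383). WRKY26, the third of these heat-tolerance genes, rose 1.55-fold in mRNA at low boron (adjusted p = 0.00142).

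WRKY2 (AT5G56270), a gene of zygote polarity and pollen development, went the other way at high boron. Its mRNA was at 22.2 and 20.4 CPM at 0.3 µM, 20.4 and 22.4 CPM at 30 µM, and 36.7 and 34.4 CPM at 500 µM, a 1.66-fold rise at high boron (log2 change 0.73 ± 0.12 SE, edgeR adjusted p = 0.000975). The call was kept in all 13 alternatives. WRKY2 footprints overlapped between high boron (4.22 and 6.03 CPM) and Ctrl (6.79 and 4.69 CPM), where no difference passed (adjusted p = 0.878). The other group I genes, WRKY1, WRKY3, WRKY4, WRKY20, WRKY32 and WRKY44 (TTG2, of trichomes and seed coats), passed neither comparison with Ctrl in either assay.

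Subgroup IId proteins bind calmodulin. WRKY15 (AT2G23320), which limits growth under oxidative stress, rose 1.97-fold in mRNA and 1.64-fold in footprints at low boron (edgeR adjusted p = 1.9e-05 and 0.0414), and its mRNA fell to 0.632 of Ctrl at high boron (adjusted p = 0.0047). The footprint call was lost without low-boron library 3 (0.32), without Ctrl library 2 (0.379) and in a fit of 2 groups alone (0.0516), and the log2 change moved between 0.37 and 1.12. The mRNA fall was lost without high-boron library 2 (0.0722), and its log2 change of -0.66 was -0.42 without Ctrl library 3. WRKY21 mRNA rose 1.35-fold at low boron (adjusted p = 0.00191).

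WRKY11 (AT4G31550) was the member that fell in mRNA at low boron, at 49.9 and 47.7 CPM against 53 and 73.8 CPM in Ctrl (log2 change -0.38 ± 0.12 SE, edgeR adjusted p = 0.0307). Its call was lost with DESeq2 (0.0655) and without low-boron library 2 (0.109), low-boron library 3 (0.176) or Ctrl library 3 (0.466), where the log2 change was -0.12. WRKY39 (AT3G04670), another heat-tolerance gene, rose 1.45-fold in mRNA at high boron, at 31.5 and 26.3 CPM against 20.6 and 19 CPM in Ctrl (adjusted p = 0.0153). The call was lost with DESeq2 (0.111) and without high-boron library 2 (0.158). WRKY39 footprints lay lower at high boron, at 6.59 and 5.89 CPM against 10.1 and 7.92 CPM in Ctrl, without passing (log2 change -0.53 ± 0.24, adjusted p = 0.422).

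In subgroup IIe, WRKY22 (AT4G01250), a target of the MAP kinase cascade that is switched on by bacterial flagellin, rose 1.57-fold in mRNA at low boron (edgeR adjusted p = 0.0443). Its levels of 12.7 and 13.2 CPM stood above the Ctrl libraries, which differed widely at 5.75 and 10.8 CPM, and the call was lost in 8 of 12 alternatives (adjusted p up to 0.398), among them the omission of either low-boron or either high-boron library or of Ctrl library 2, where the log2 change was 0.26. The log2 change was 1.17 without Ctrl library 3. WRKY29, WRKY35, WRKY65 and WRKY69 passed neither comparison with Ctrl.

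Set directly against each other, the 2 outer supplies differed in more members than either did from Ctrl. High-boron mRNA differed from low-boron mRNA for 29 of 46 members, 28 lower and 1 higher, or 63.0% of the members. Of all genes 42.4% were called, 23.1% lower and 19.3% higher. The median log2 change of the members tested was -1.17. Of the members called, 24 were at least 2-fold lower, a size reached by 7.62% of all genes. WRKY46 mRNA was 16.7-fold lower at high than at low boron, WRKY51 14.9-fold, WRKY54 8.13-fold, WRKY40 7.82-fold and WRKY70 7.68-fold. WRKY2 was the member that was higher (1.67-fold, edgeR adjusted p = 0.000132). In footprints, 26 of 47 members differed, 25 lower and 1 higher, or 55.3% of the members. Of all genes 20.7% were called, 11.3% lower and 9.34% higher. WRKY46 footprints were 10.1-fold lower at high boron. The footprint exception was WRKY11, at 98.2 and 121 CPM at high boron against 71.1 and 71 CPM at low boron (1.54-fold, edgeR adjusted p = 0.0337). This call was lost when either low-boron library (log2 change 0.62) or high-boron library 3 (0.45) was left out. The comparison of high with low boron uses the same libraries as those above, so it adds no separate samples.

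Footprint and mRNA changes went together across the members. Over the 45 members tested in both assays, Pearson's r between the log2 changes was 0.92 at low boron, beside 0.79 over 17306 genes, and 0.63 at high boron, beside 0.41 over those genes. Each point of a comparison shares the same libraries with every other, so these values describe the members and are given without a p. At low boron the absolute log2 change was smaller in footprints than in mRNA for 31 of 45 members, beside 45.8% of all genes, and at high boron for 22 of 45, beside 44.6%. Median log2 changes of these 45 members at low boron were 0.63 in mRNA and 0.48 in footprints.

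**Figure D3:**
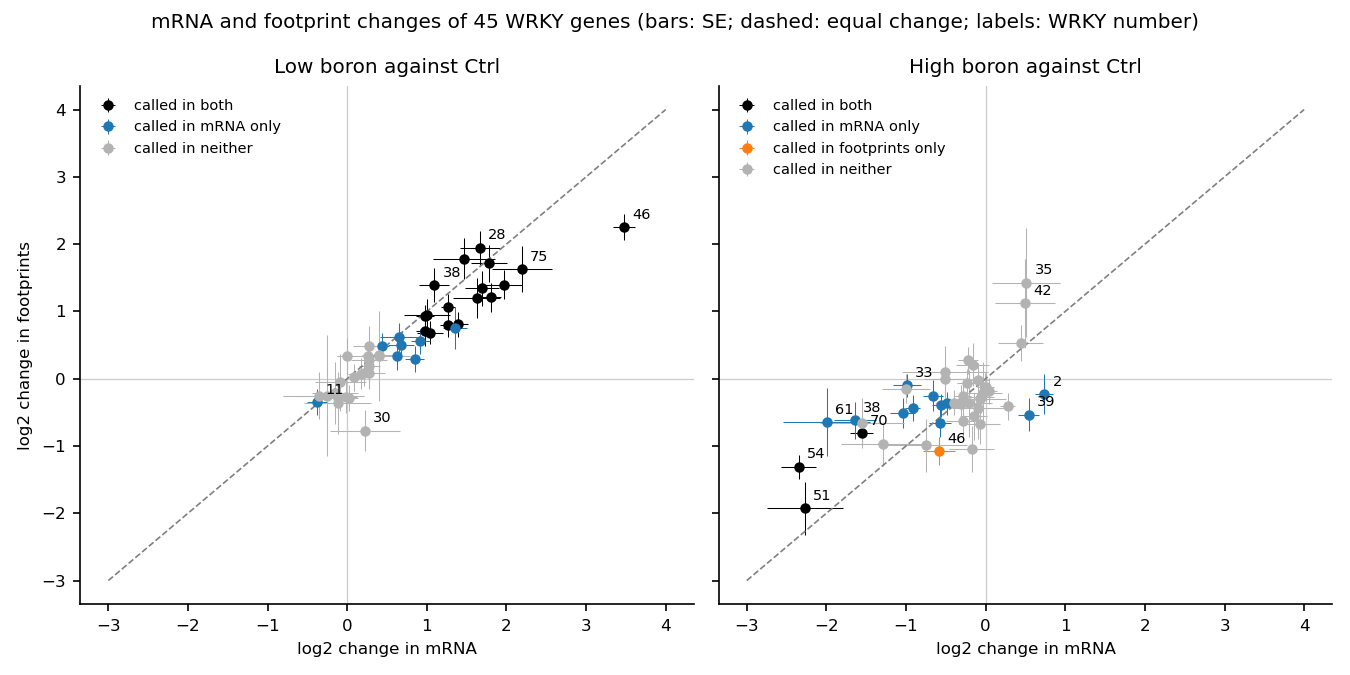
Log2 change in footprints (vertical) against log2 change in mRNA (horizontal) of 45 WRKY genes, at low boron (left) and high boron (right) against Ctrl, with SE bars and a dashed line of equal change. Colours show in which assay the gene was called. At low boron WRKY46 lies far below the dashed line, at 3.48 in mRNA and 2.26 in footprints, and at high boron WRKY2 and WRKY39 lie on the right with footprint changes under 0.

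Translation efficiency, the change in footprints relative to the change in mRNA, was tested as an interaction in a single fit of the 12 libraries. None of 45 members passed at low boron, beside 0.0231% of 17306 genes, and none at high boron, beside 0.734%. At an unadjusted p under 0.05 there were 5 of 45 members at low boron, beside 1049 of 17306 genes, and 8 at high boron, beside 1429 of 17306 genes. DESeq2 called 1 member at low boron, WRKY46, and none at high boron, and limma voom called none in either comparison. The SE of a member's efficiency change at low boron ran between 0.18 and 0.81 on the log2 scale. It was largest for low-count genes such as WRKY42 and WRKY35, where a 2-fold change was not detectable at this depth. Changes above 2-fold also did not pass in the well-counted WRKY46, WRKY39 and WRKY54, whose values follow. The lack of calls therefore does not show that efficiency was unchanged in the members.

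The members nearest to the threshold are given by value. At low boron WRKY46 had the lowest efficiency change, a log2 difference of -1.22 ± 0.25 (edgeR adjusted p = 0.226), which passed with DESeq2 (0.0359) and without Ctrl footprint library 3 (0.0396). The other members with an unadjusted p under 0.05 were WRKY25, WRKY60, WRKY70 and WRKY53, with log2 differences between -0.46 and -0.59 at adjusted p-values of 0.782 to 0.821, while WRKY30 had a lower but less precise value of -0.98 ± 0.53 (0.826). At high boron WRKY39 had -1.08 ± 0.25 (adjusted p = 0.0634), WRKY2 -0.99 ± 0.29 (0.193) and WRKY21 -0.69 ± 0.21 (0.199). On the other side stood WRKY54 at 1.04 ± 0.29 (0.162), WRKY38 at 1.02 ± 0.43 (0.535), WRKY33 at 0.89 ± 0.26 (0.193), WRKY70 at 0.75 ± 0.26 (0.306) and WRKY18 at 0.47 ± 0.22 (0.591). Leaving out 1 Ctrl library brought 1 member past the threshold in 3 cases at high boron: WRKY33 without RNA library 2 (0.0208), WRKY54 without RNA library 3 (0.0459) and WRKY39 without footprint library 3 (0.0288). For WRKY6 the log2 difference was -0.03 ± 0.18 in low boron and 0.12 ± 0.19 in high boron, and for WRKY47 it was -0.36 ± 0.21 and 0.03 ± 0.22, none of which passed.

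**Figure D4:**
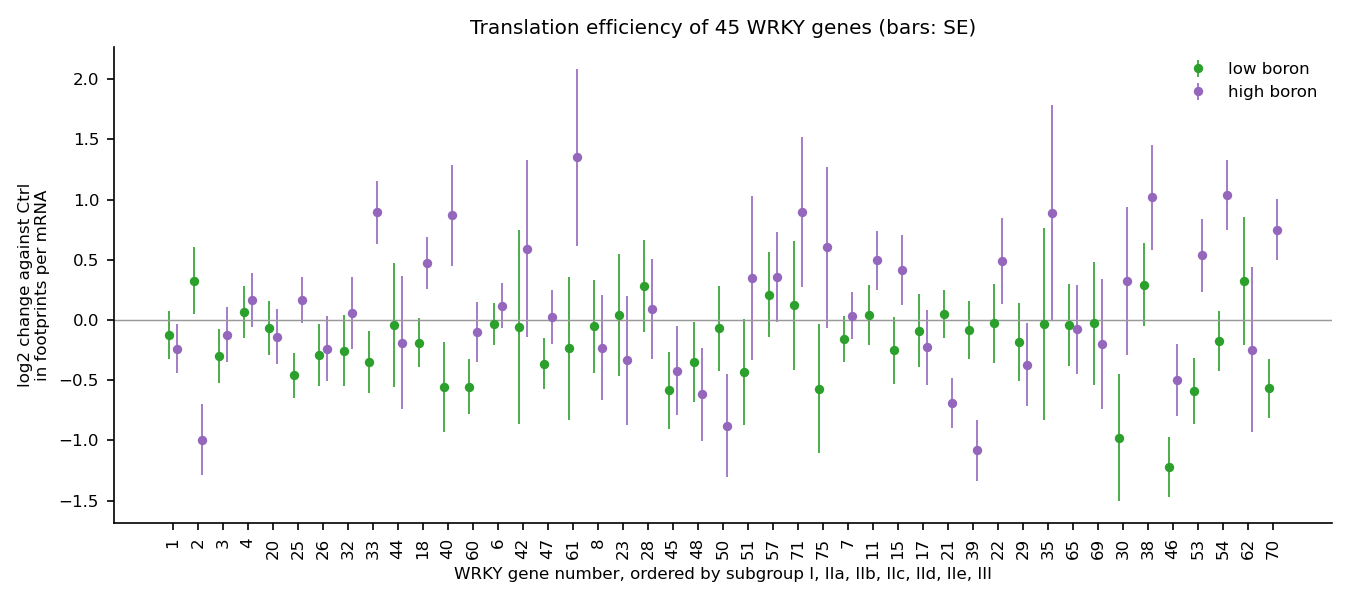
Log2 change against Ctrl in footprints per mRNA, with SE bars, for 45 WRKY genes ordered by subgroup, at low boron (green) and high boron (purple). WRKY46 is lowest at low boron with -1.22, and WRKY39 is lowest at high boron with -1.08; no gene passed the adjusted threshold.

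MAP kinases relay signals to WRKY factors, and 11 genes of the cascades that reach them were all tested. At low boron mRNA of 11 of 11 rose, beside 19.5% of all genes, with a median log2 change of 0.69 beside 0.02 for all genes. MPK11 rose most, with 381 and 328 reads at low boron against 68 and 46 in Ctrl (6.38-fold, edgeR adjusted p = 4.16e-08), and MKK1 rose 2.18-fold. MPK3 and MPK6, the kinases that phosphorylate WRKY33, rose 1.89-fold and 1.31-fold. Footprints of 5 of the 11 rose (MKK1, MKK2, MKK5, MPK3 and MPK11), beside 8.05% of all genes. At high boron mRNA of 4 of 11 fell, beside 4.55% of all genes, namely MKK1, MKK2, MPK3 and MPK11. In footprints none of the 11 passed at that supply, beside 1.98% of all genes, MPK11 included (log2 change -0.65 ± 0.22, edgeR adjusted p = 0.192).

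VQ-motif proteins bind WRKY factors and alter their activity, and 10 of 12 listed genes could be tested. At low boron 4 of the 10 rose in mRNA, beside 19.5% of all genes. JAV1, a repressor of jasmonate defence, rose 2.52-fold, CAMBP25, a calmodulin-binding protein gene, 2.27-fold, SIB1, a partner of WRKY33, 2.07-fold, and MVQ1, a substrate of MAP kinases, 1.51-fold (edgeR adjusted p = 1.56e-05, 0.00197, 0.000333 and 0.000132). Footprints of JAV1 and CAMBP25 rose as well, 2.7-fold and 2.43-fold (adjusted p = 0.00116 and 0.0029), or 2 of 10 beside 8.05% of all genes. At high boron 3 of 10 fell in mRNA, beside 4.55% of all genes: SIB1, SIB2 and JAV1, to 0.494, 0.7 and 0.629 of Ctrl. In footprints 1 of 10 fell, SIB1, beside 1.51% of all genes (log2 change -1.0 ± 0.20, adjusted p = 0.0168).

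Of 16 genes known to be bound or regulated by WRKY factors, 13 were tested in mRNA and 14 in footprints. At low boron 8 rose in mRNA and 1 fell, beside 19.5% and 13.8% of all genes, with a median log2 change of 0.90 beside 0.02. EDS1 and ICS1, genes of salicylic acid defence, each rose 3.48-fold (edgeR adjusted p = 2.64e-08 and 1.16e-07), and PAD3, which makes camalexin and is a WRKY33 target, rose 3.83-fold (1.14e-07). PHT1;1, the WRKY45 target, rose 1.75-fold (0.0183), while PHO1, repressed by WRKY6, did not pass (log2 change -0.19 ± 0.12, adjusted p = 0.254). ESP, a gene of glucosinolate breakdown whose protein binds WRKY53, fell to 0.472 of Ctrl (0.0141) and rose 2.65-fold at high boron (0.00133). PR1, also on the list, had mRNA at 349 and 360 CPM at low boron, between its Ctrl libraries at 469 and 228 CPM. Its footprints were at 493 and 603 CPM at low boron and 317 and 396 CPM in Ctrl. At high boron 5 of 13 fell in mRNA, beside 4.55% of all genes: PAD3, FRK1, EDS1, ICS1 and NPR1. In footprints 8 of the 14 rose at low boron, beside 8.05% of all genes, and ICS1, FRK1 and EDS1 were the 3 that fell at high boron, beside 1.51%.

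Other sets of genes moved between the same libraries. Of 8 touch-responsive genes tested, a list that marks handling and wounding, mRNA of 6 rose at low boron, beside 19.5% of all genes, with a median log2 change of 1.52, and TCH3 fell at high boron. Their summed mRNA level was 1270 and 1320 CPM at 0.3 µM, 378 and 510 CPM at 30 µM, and 259 and 345 CPM at 500 µM boric acid, and 6 of 7 tested rose in footprints at low boron, beside 8.05% of all genes. Within Ctrl, all 8 were higher in RNA library 3 than in library 2, with a median log2 difference of 0.94. Among the 46 WRKY members, 17 were higher in library 3, with a median log2 difference of -0.1. Called members among those 17 included WRKY40 (9.07 and 21.8 CPM), WRKY22 (5.75 and 10.8 CPM) and WRKY33 (54.6 and 91.3 CPM). WRKY11 (53 and 73.8 CPM), WRKY15 (48.6 and 66.1 CPM) and WRKY53 (21.9 and 29.6 CPM) were also among them. WRKY54 (42 and 26.4 CPM) and WRKY62 (2.32 and 1.04 CPM) were among the members lower in library 3. At low boron the mRNA of 4 circadian clock genes of 12 rose and that of 6 fell, or 10 called beside 33.3% of all genes, and at high boron 4 rose and 5 fell, or 9 called beside 9.06%. Among them JMJD5, an evening gene, had 45 and 44 reads in the low-boron libraries, 490 and 381 reads in Ctrl, and 74 and 86 reads in the high-boron libraries. The root marker sum in mRNA was 491 and 503 CPM at 0.3 µM, 256 and 389 CPM at 30 µM, and 154 and 182 CPM at 500 µM, and PYK10 made up nearly all of it. The part of touch genes, clock genes, shoot markers and root markers in the WRKY changes was not tested.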

How the data were processed

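The authors deposited raw counts per gene for 12 libraries: ribosome P-sites and RNA-seq reads over coding sequences. Bowtie2 and SAMtools were used, per the submitters' processing notes; versions, genome build, annotation and use of strand are not given in the sources used here, so no coordinates are printed. Per the labels' protocols, footprints were cut with RNase I in extracts with cycloheximide, which can shift where footprints fall.

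The columns are numbered 2 and 3 and the labels 1 and 2, so columns were assigned to groups only. Counts were fitted with edgeR 4.0.16 in R 4.3.3 (TMM scaling, filterByExpr, quasi-likelihood F test), all 3 supplies of an assay in one fit, with Benjamini-Hochberg adjustment over all genes tested and calls at an adjusted p under 0.05. Translation efficiency was the interaction of assay and supply in a joint fit. SE is the absolute log2 change divided by the square root of F. The fits were run on simulated counts with 1 spread per assay. There, 2-fold changes were placed only in genes with a mean above 50 counts in both assays. Changes in low-count genes were thus not covered, and the share recovered was not checked for translation efficiency. Alternatives were DESeq2 1.42.0, limma 3.58.1 (voom), DESeq2 size factors in edgeR, no filter, a filter at a mean of 50 counts in every group, 2 groups alone, the replicate number as a block, and each library left out. The DESeq2 alternative also used its own size factors and left out filterByExpr, so it changed more than the tool.

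The members, subgroups and gene lists were chosen with earlier results of these data known. Values of every library are printed for called members with a log2 change of at least 1 (at most 12 rises and 6 falls per assay and comparison), for WRKY6 and WRKY47, and for some members set beside them, chosen after their values were seen. Sequences were not used here.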

Additional observations from a re-analysis of the deposited data

How the results depend on the processing

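Of 115 calls of members over the mRNA and footprint comparisons, none changed direction in any of 1455 alternative values, and 36 lost their call in at least 1 alternative. The calls kept in every alternative that tested them were 20 of 25 in mRNA at low boron, 6 of 14 in mRNA at high boron (WRKY2, WRKY18, WRKY38, WRKY53, WRKY54 and WRKY70), 23 of 29 in mRNA between high and low boron, 11 of 17 in footprints at low boron, 1 of 4 in footprints at high boron (WRKY54), and 18 of 26 in footprints between high and low boron. A filter at a mean of 50 counts in every group called 15 members in mRNA at low boron and 16 in mRNA between high and low boron; fewer genes were tested there, and 27 members passed that filter.

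Leaving out 1 library at a time gave between 22 and 25 calls in mRNA at low boron, 6 and 15 in mRNA at high boron, 25 and 30 in mRNA between high and low boron, 11 and 19 in footprints at low boron, 1 and 4 in footprints at high boron, 19 and 29 in footprints between high and low boron, and 0 and 1 in translation efficiency at either supply. DESeq2 called 1 member in translation efficiency at low boron; the cause was not tested. Among changes that did not pass, leaving out 1 library turned the sign in some cases. The log2 change ran between -0.44 and 0.033 for WRKY11 and between -0.90 and 0.014 for WRKY22 in mRNA at high boron, between -0.14 and 0.067 for WRKY6 in translation efficiency at low boron, and between -0.14 and 0.19 for WRKY47 in translation efficiency at high boron; in each case the cause was not tested. DESeq2 size factors moved the median of all genes by less than 0.1 on the log2 scale.

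With the replicate number as a block, the counts were 25, 15 and 29 in mRNA (low boron, high boron, high against low), 19, 4 and 28 in footprints, and 0 in translation efficiency at either supply. Deviations of same-numbered libraries from their group means correlated between -0.02 and 0.06 among mRNA groups and between -0.011 and 0.156 among footprint groups. These values cannot show whether same-numbered libraries shared a harvest or handling, which was not tested.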

Other observations

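Of the 22 WRKY genes outside the 50 members, 10 were tested in mRNA and 10 in footprints. At low boron 3 of the 10 rose in mRNA, beside 19.5% of all genes higher: ABO3, a gene of abscisic acid signalling, was at 1.58 and 1.67 CPM against 0.221 and 0.576 CPM in Ctrl (log2 change 2.00 ± 0.67 SE, edgeR adjusted p = 0.0328), WRKY19 rose 1.33-fold (0.0067) and TTR1 1.23-fold (0.0361). TTR1 also rose 1.69-fold in footprints (0.02), and WRKY49 fell in footprints, at 0.337 and 0.576 CPM against 1.72 and 1.61 CPM in Ctrl (log2 change -1.96 ± 0.55, adjusted p = 0.0245). At high boron WRKY58 fell in mRNA, at 0.385 and 0.758 CPM against 3.43 and 1.84 CPM in Ctrl (log2 change -2.15 ± 0.53, adjusted p = 0.0196), from 3 and 7 reads at high boron.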
